A study of Mus musculus with 89 samples.

Results

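Loss of Esrrb was set directly against loss of Nr5a2 in mouse embryonic stem cells (ESCs) kept in 2i/LIF. The comparison uses 6 RNA-seq libraries, 3 per state, of the 89 samples of the series, 20 of which are RNA-seq. It asks which genes depended on one of these nuclear receptors more than on the other. The 6 libraries were chosen by their labels alone, with no measured value. 2i/LIF is a serum-free medium with PD0325901 (an inhibitor of Mek), CHIR99021 (an inhibitor of Gsk3) and the cytokine LIF, and FCS/LIF is serum with LIF.

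In −E, EKOiE ESCs had been without doxycycline (Dox) for 2 days. In EKOiE cells the endogenous Esrrb gene is knocked out, and Esrrb comes from a Dox-inducible TetO-3xFlag-Esrrb-IRES-PuroR transgene. In −N, EKOiE NrKO ESCs were kept with 1 µg/ml Dox, so that they carried the Esrrb transgene switched on and Nr5a2 disrupted on both alleles in the exon for the first part of the DNA-binding domain. The other 2 states, of 3 libraries each, are given for context: +E+N (EKOiE with Dox) and −E−N (EKOiE NrKO 2 days after Dox withdrawal). Every state carries the knockout of endogenous Esrrb. The states −E and −N differ in the factor lost, in Dox, in the time since the loss and in the cell line, and these cannot be told apart. The methods name a single NrKO clone for RNA-seq, and the labels do not give it. The labels also do not say whether replicates were separate cultures, so all p values measure the spread between these libraries.

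Esrrb and Nr5a2 are nuclear receptors that bind DNA as single molecules, at an extended version of the receptor half-site. They bind many of the same enhancers in ESCs and belong to the naive pluripotency network, the set of transcription factors that keeps cells in the state of the pre-implantation epiblast. Esrrb is held by this network together with Wnt and Gsk3 inputs and is also a regulator of trophoblast stem cells. Nr5a2 is known for bile acid and steroid synthesis in liver and gonad, and for its role in early embryos.

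The 6 libraries were of like depth, with a total of 26653035 to 29582174 counts (median 28383567.5), and the 10 most abundant genes took 5.86% to 6.40% of each. Neither targeted gene checks the labels by its total count, since reads of the Esrrb transgene and of the disrupted endogenous gene are counted together, and reads of the disrupted Nr5a2 alleles count as Nr5a2. Esrrb (ENSMUSG00000021255, chr12:86361117-86521628 in mm10) was at 439.5, 426 and 374 CPM (counts scaled to a library of 1000000 after TMM, a correction for library composition) in −E and at 406, 521 and 519 in −N. Nr5a2 (ENSMUSG00000026398, chr1:136842571-136960448) was at 52.0, 45.7 and 41.6 CPM in −E and 76.7, 63.1 and 62.9 in −N. The ranges of Esrrb overlapped, while those of Nr5a2 did not (nor did those of 30.9% of all genes tested), and neither gene was called: the log2 fold change, always given as −E minus −N, was -0.22 for Esrrb (SE, the standard error, 0.16, adjusted p = 0.404) and -0.54 for Nr5a2 (SE 0.21, adjusted p = 0.114). Adjusted p values come from the quasi-likelihood test of edgeR, adjusted by the Benjamini-Hochberg method over all genes tested in 2i/LIF unless stated. The limits for a call were an adjusted p under 0.01 and a fold change over 1.5.

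The cells of both states carried the defining transcripts of ESCs at near-equal level. None of the 8 ESC markers was called in the edgeR fit (4 had an unadjusted p under 0.05, and DESeq2 also called 0), and their log2 fold changes had a median of 0.06 against 0.01 over all genes. Pou5f1, the core factor of pluripotent cells, was at 1653, 1351 and 1279 CPM in −E and 1247, 1251 and 1257 in −N. Nanog, another core factor, was at 863, 906 and 827 CPM in −E and 563, 631 and 678 in −N, with ranges that did not overlap and a log2 fold change of 0.47 (adjusted p = 0.00648), under the fold limit. The other markers lay between -0.36 (Tfcp2l1) and 0.32 (Dppa4).

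Of 14355 genes tested, 565 (3.94%) were called, 316 (2.20%) higher and 249 (1.73%) lower in −E than in −N. Libraries with the same replicate number deviated together, and with that number as a block 1241 genes (8.65%) were called, 690 higher and 551 lower, including all 565 of the fit without it. Among the 316 genes, 211 differed more than 2-fold, 65 more than 4-fold and 14 more than 8-fold, and among the 249 the counts were 171, 71 and 35. No gene of the 565 had CPM ranges of −E and −N that overlapped, so a lack of overlap adds no support to a call. For comparison, −E against +E+N called 223 genes (1.55%), and −N against +E+N 524 (3.65%), both with the same +E+N libraries. The genes higher in −E had a median log2 fold change against +E+N of 0.28 in −E and -0.97 in −N. For the genes lower in −E these medians were -0.47 in −E and 0.61 in −N. The comparison thus held genes that were low without Nr5a2, genes that were high without Nr5a2, and genes that were low without Esrrb, as described next.

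**Figure D1:**
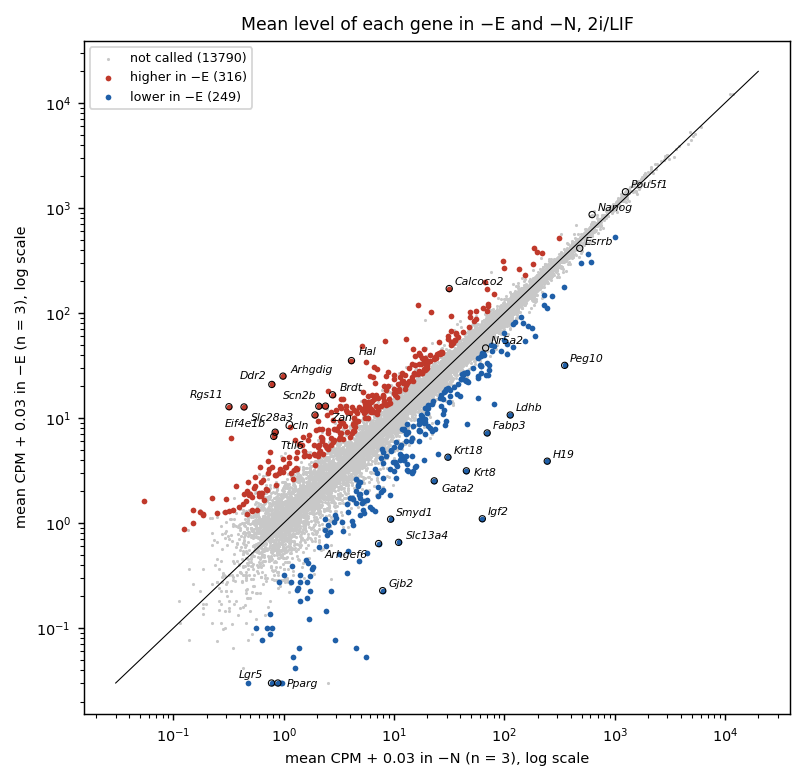
Mean CPM + 0.03 of each of the 14355 genes tested in −N (x axis) and −E (y axis), n = 3 libraries each, both axes on a log scale. Red points are the 316 genes called higher in −E, blue points the 249 called lower, grey points genes not called, and the line marks equal levels. The ESC genes Pou5f1, Nanog and Esrrb lie near the line, and H19 and Igf2 lie far under it.

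The genes with the largest differences in favour of −E were abundant in +E+N and −E and low in −N. Rgs11, a GTPase activator for G protein alpha subunits (ENSMUSG00000024186, chr17:26202951-26211324), was at 16.6, 12.9 and 8.90 CPM in −E and 0.355, 0.254 and 0.258 in −N. The groups were far apart, with a log2 fold change of 5.44 (SE 0.33, adjusted p = 1.50e-06), and the +E+N libraries (11.6, 7.18 and 7.31 CPM) were on the side of −E. Its neighbour Arhgdig (chr17:26199183-26207786) overlaps it on the opposite strand over 4836 bp and had 39.0, 20.9 and 15.3 CPM in −E and 0.816, 0.906 and 1.14 in −N (log2 fold change 4.71, adjusted p = 1.06e-05). The strand setting of the counting is not given in the sources used here, so the reads of this pair may be divided between them with error.

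Slc28a3, a sodium-coupled nucleoside transporter, was at 17.0, 12.4 and 8.83 CPM in −E and 0.710, 0.326 and 0.184 in −N (log2 fold change 4.94, adjusted p = 2.44e-05). Ddr2, a receptor tyrosine kinase for collagen, was at 18.4, 27.1 and 17.0 CPM in −E against 0.497, 0.906 and 0.848 in −N (log2 fold change 4.79, adjusted p = 9.16e-07). For each, every −E library exceeded every −N library by more than 10-fold, and the −E−N libraries (0.163, 0.457 and 0.237 CPM for Slc28a3 and 0.358, 0.246 and 0.271 for Ddr2) were as low as −N. Hal, which starts the breakdown of histidine, had 38.3, 30.5 and 36.8 CPM in −E and 2.59, 4.57 and 5.09 in −N, a log2 fold change of 3.11 (adjusted p = 4.53e-06). Calcoco2, an autophagy receptor, was the most abundant of the 12 in CPM, at 206, 170.4 and 136 in −E and 25.0, 32.7 and 37.0 in −N (log2 fold change 2.44, adjusted p = 3.20e-06). Ttll6, an enzyme that adds glutamate chains to tubulin and the neighbour of Calcoco2 on chromosome 11, was at 6.91, 7.20 and 5.86 CPM and 0.958, 0.653 and 0.737 CPM in the same order (log2 fold change 3.08, adjusted p = 4.63e-06). The rule for the 12 largest required ranges that do not overlap, so the lack of overlap in these 3 genes is no further support.

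The other 5 of the 12 largest were Eif4e1b, an oocyte form of the cap-binding protein (3.17), Scn2b, a sodium channel subunit (2.65), Brdt, a testis reader of acetylated histones (2.60), Ocln, a tight junction protein (2.49), and Zan, a sperm surface protein (2.46). Brdt had 11.4, 12.3 and 26.2 CPM in −E and 2.06, 1.56 and 4.61 in −N, a wide spread in both states. Its call and that of Ocln were lost when single libraries were left out of the fit without the block. With the block and all libraries both were called (edgeR adjusted p = 4.31e-07 for Brdt and 1.46e-06 for Ocln).

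**Figure D2:**
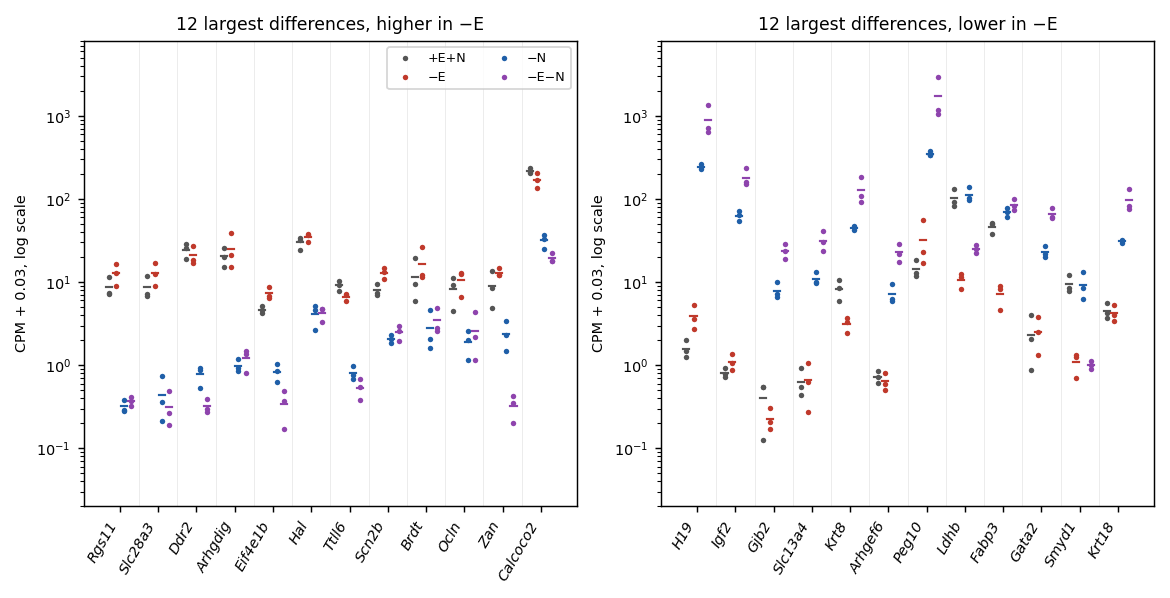
CPM + 0.03 (log scale) in each of 12 libraries of 2i/LIF for the 12 genes with the largest called difference in each direction, with the horizontal line at the mean of each state of 3. In the left panel −E (red) lies with +E+N (grey) and −N (blue) with −E−N (purple); in the right panel most genes are highest in −E−N and low in +E+N and −E, while Ldhb and Smyd1 are low in −E and −E−N.

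Khdc3, a member of the subcortical maternal complex of oocytes, moved in both depletions and more in −N. Its 47.3, 46.5 and 50.4 CPM with both factors stood above the 12.8, 13.2 and 9.75 of −E and the 1.42, 3.41 and 4.06 of −N, and −E−N was lowest at 0.0651, 0.141 and 0.135. The log2 fold change between −E and −N was 2.01 (SE 0.26, adjusted p = 4.45e-04), and against +E+N it was -2.01 in −E (adjusted p = 5.07e-04) and -4.02 in −N (adjusted p = 3.31e-06). Sgk1, a kinase of the PI3K pathway, was at 377, 405 and 360.2 CPM in −E and 211, 207 and 175 in −N, a smaller difference without overlap (log2 fold change 0.95, adjusted p = 4.10e-04).

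Both receptors recognise the 9-base sequence TCAAGGTCA, and TCAAGGCCA is a known site of the Nr5a family, so promoters of called genes were searched for these letters on both strands. Promoters were taken from RefSeq (GRCm38.p6), 250 bases before to 50 bases after each start. TCAAGGTCA was found in 139 of 32851 promoters (0.423%), in 34 of the 10451 tested genes with a promoter (0.325%), in 3 of 243 genes higher in −E (1.23%) and in 0 of 177 genes lower in −E. TCAAGGCCA was found in 194 (0.591%), 51 (0.488%), 1 (0.412%) and 0 of the same sets. The 4 genes with a match were Defb42, a defensin, Gpr161, a receptor of cilia, Sgk1, which has a match at 2 of its starts, and Khdc3; Defb42 and Gpr161 are named outside the rule, after their values were seen. The windows are shown so that the match and its flanks can be read beside the values of these genes. They are on the strand of the gene, 5′ to 3′, with the motif in capitals (TGACCTTGA and TGGCCTTGA are the motifs read on the opposite strand).
Defb42, chr14:63046862-63046890: tctaggcatcTGACCTTGAaaacagccct
Gpr161, chr1:165295673-165295701: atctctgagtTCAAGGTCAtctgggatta
Sgk1, chr10:21978599-21978627: aggaccgggcTGACCTTGAacttttgaag
Sgk1, chr10:21985990-21986018: atctccgagtTCAAGGTCAtccgggatta
Khdc3, chr9:73102180-73102208: gagattagatTGGCCTTGAagtcaggtaa
The matches end 110, 74, 54, 95 and 199 bases before the start, in this order. The flanks of Gpr161 and of the second window of Sgk1 are nearly the same, and whether they share an origin was not tested. The Khdc3 window lies inside the span of that gene in GENCODE (chr9:73101836-73104438), the annotation used for coordinates here. Gpr161 was at 4.66, 6.11 and 3.54 CPM in −E and 2.24, 2.07 and 1.99 in −N (log2 fold change 1.18, adjusted p = 0.00668), and Defb42 at 0.961, 0.777 and 0.784 and 0.177, 0 and 0.111 CPM (log2 fold change 3.07, adjusted p = 0.00382). Both calls depend on single libraries: Gpr161 lost its call in 5 of the 6 fits without 1 library (adjusted p up to 0.0306, without −E replicate 2) and Defb42 in 4 (up to 0.0148, without −N replicate 3). A match is a run of letters, and binding was not analysed here.

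The genes with the largest differences in the other direction included trophectoderm markers and imprinted genes. Of 21 trophectoderm markers tested, 5 were called lower in −E and 1 higher, 28.6% of the list against 3.94% of all genes. This list and the others below were chosen with earlier results of these data known. A share above that of all genes is thus a description and no independent support. The list had a median log2 fold change of -0.70 against 0.01. With the replicate block 10 were called, 7 lower and 3 higher. Krt8, one keratin of the pair that marks simple epithelia (chr15:101996698-102004482), was at 3.63, 2.44 and 3.27 CPM in −E and 47.7, 42.0 and 45.9 in −N (log2 fold change -3.86, SE 0.29, adjusted p = 4.63e-06). Its partner Krt18, which lies next to it, was at 3.35, 3.95 and 5.32 CPM in −E and 31.8, 29.7 and 30.8 in −N (log2 fold change -2.87, adjusted p = 8.23e-06). Every −N library of both keratins stood above every −E library, as the rule for naming the largest differences required. The level was higher still in −E−N (109.8, 91.8 and 185 CPM for Krt8). Gata2, a transcription factor of trophoblast and blood, had 1.28, 3.74 and 2.45 CPM in −E and 21.8, 27.3 and 20.2 in −N (log2 fold change -3.21, adjusted p = 3.10e-04). The rise of Krt8 against +E+N (10.5, 5.86 and 8.34 CPM) was 2.45 on the log2 scale in −N (adjusted p = 1.04e-04), and that of Gata2 (0.850, 4.00 and 2.03 CPM in +E+N) was 3.36 (adjusted p = 2.61e-04).

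Krt7, another keratin, was lower in −E (0.712, 1.41 and 1.70 CPM) than in −N (5.82, 7.14 and 7.26), with a log2 fold change of -2.39 (adjusted p = 5.34e-04). Fgfr2, the receptor through which trophoblast responds to Fgf4, was at 0.427, 0.318 and 0.716 CPM in −E and 5.50, 6.27 and 5.35 in −N (log2 fold change -3.53, adjusted p = 1.60e-04), although its annotated span overlaps many other tested genes and its count is less certain. The 1 marker called higher in −E was Lrp2, an endocytic receptor that is also a primitive endoderm marker, and its call was lost in 5 of the 6 fits without 1 library.

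The other transcription factors of trophectoderm examined differed by less than Krt8 and Krt18. Cdx2 was at 6.83, 2.12 and 3.24 CPM in −E and 14.8, 4.42 and 5.09 in −N, with ranges that overlap although −E was below −N at each replicate number (log2 fold change -1.0, adjusted p = 0.236). Like Krt8 it was highest in −E−N (40.5, 47.7 and 53.4 CPM), and against +E+N (2.55, 0.660 and 1.03 CPM) it was at 2.49 in −N (adjusted p = 0.0149). Eomes went the other way, at 15.8, 13.7 and 13.2 CPM in −E and 2.77, 7.72 and 6.86 in −N, with a log2 fold change of 1.30 (adjusted p = 0.0127, called by DESeq2 and with the block). Tead4 had ranges that did not overlap and a log2 fold change of -0.44 (adjusted p = 0.016), under the fold limit. Tfap2c (0.25), Gata3 (-0.30) and Id2 (-0.56) were not called, and Elf5 and Hand1 had at most 16 and 5 counts in any library of 2i/LIF. The choice of these 6 factors was made after their values were seen. Summed over the 21 markers the level was 310.2 to 317 CPM in −E, 401 to 421 in −N, 329 to 338 in +E+N and 622 to 906 in −E−N. In these bulk samples, more cells of a type and more RNA per cell cannot be told apart.

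Among the other large differences in this direction, Gjb2, a gap junction connexin, was at 0.178, 0.141 and 0.273 CPM in −E and 9.90, 6.60 and 7.08 in −N (log2 fold change -5.28, adjusted p = 6.26e-06). Slc13a4, a sulphate transporter, had 0.605, 0.247 and 1.02 CPM and 13.3, 9.72 and 9.88 CPM in the same order (log2 fold change -4.12, adjusted p = 2.44e-05). Arhgef6, an X-linked exchange factor for Rac and Cdc42, was at 0.570, 0.777 and 0.477 and 9.55, 6.27 and 5.83 CPM (log2 fold change -3.56, adjusted p = 8.23e-06). All 3 stood at about 1 CPM or less in +E+N and −E and were highest in −E−N, for Gjb2 at 23.8, 19.13 and 28.5 CPM. Car4, a carbonic anhydrase, had no count in any −E library and 1.38, 0.689 and 0.701 CPM in −N, at least 8.81-fold higher in −N when 3 counts per library are taken as the floor.

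Imprinted genes are expressed from the allele of 1 parent and are often abundant in placenta. By count they held more called members than any other list. Of 53 tested, 11 were called (20.8% against 3.94% of all genes), 9 lower and 2 higher in −E. By share, trophectoderm markers (28.6%) and oocyte subcortical maternal complex genes (22.2%) stood above them. The list had a median log2 fold change of -0.17, and with the block 18 were called, 15 lower and 3 higher. H19, a non-coding RNA (ENSMUSG00000000031, chr7:142575529-142578143), was at 3.56, 2.68 and 5.32 CPM in −E and 265, 241 and 228 in −N, the largest called difference among genes with at least 100 counts on average (log2 fold change -5.98, SE 0.32, adjusted p = 6.46e-07). Igf2, a growth factor from the other parental allele of the same cluster, was at 0.854, 1.02 and 1.33 CPM in −E and 71.5, 64.1 and 53.6 in −N (log2 fold change -5.87, SE 0.22, adjusted p = 2.29e-08). H19 is normally read from the maternal allele and Igf2 from the paternal, and both were higher in −N. Igf2os, an antisense RNA that shares 7124 bp with Igf2, moved with it (4.26, 4.97 and 4.24 CPM in −N, at most 2 counts in a −E library), and the 2 cannot be separated without the strand setting.

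In +E+N the level of H19 was 1.45, 1.21 and 1.97 CPM and that of Igf2 0.755, 0.696 and 0.896 CPM, near −E, and in −E−N they reached 709, 638 and 1336 and 159, 150.3 and 233 CPM. Peg10, a placental gene derived from a retrotransposon, was at 16.8, 22.8 and 55.5 CPM in −E and 334, 339.8 and 381 in −N (log2 fold change -3.47, adjusted p = 5.62e-04). Its −E libraries spread over more than 3-fold but stayed under every −N library, as the naming rule required. Sfmbt2, a Polycomb protein expressed in trophoblast, was at 14.6, 16.7 and 15.3 CPM in −E and 86.6, 52.3 and 34.4 in −N (log2 fold change -1.90, adjusted p = 7.39e-04). Slc22a3, an organic cation transporter of placenta, had at most 3 counts in a −E library and 3.19, 3.01 and 2.51 CPM in −N.

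The remaining imprinted genes differed by less. Meg3 (-0.95), Rtl1 (-1.51), Rian (-0.96) and Mirg (-1.16), which lie side by side at chr12:109541001-109749460, were all called lower in −E. Rian, the most abundant of them in CPM, was at 141, 202 and 191 in −E, 283, 389.9 and 366 in −N, against 210.3, 230.3 and 225 in +E+N, so that the −N libraries were highest and the −E libraries lowest. Usp29 (1.21), a ubiquitin protease from the Peg3 cluster, and Osbpl5 (1.63), a lipid transfer protein, were the 2 higher in −E. Of these, Meg3, Usp29 and Osbpl5 lost the call in 4 of the 6 fits without 1 library and Rtl1 in 5, while Rian and Mirg kept it. Peg3 itself was at 35.5, 36.1 and 44.9 CPM in −E and 84.6, 74.4 and 62.8 in −N, with a log2 fold change of -0.93 that missed the limit (adjusted p = 0.0159), as did Mest (-0.87, adjusted p = 0.0156) and Sgce (-1.43, adjusted p = 0.0739). Besides H19, Igf2, Peg10, Usp29 and Osbpl5, the imprinted genes here are outside the rule, and their choice followed their values.

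**Figure D3:**
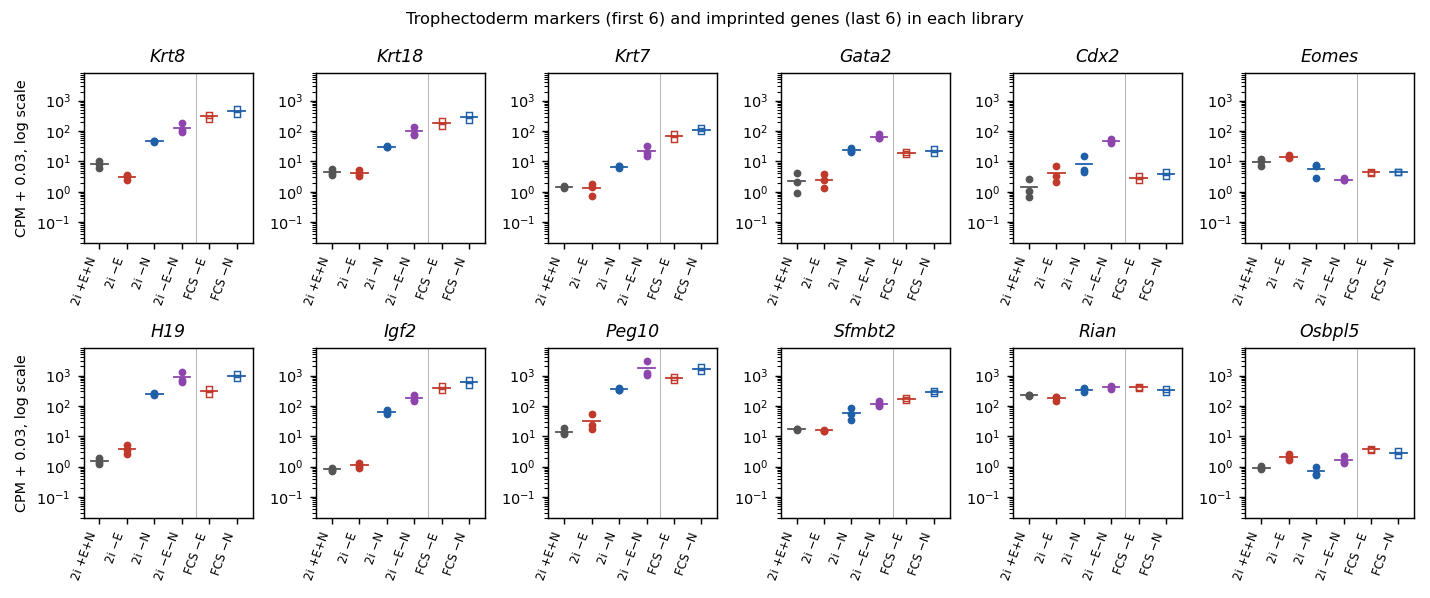
CPM + 0.03 (log scale) in each library for 6 trophectoderm markers and 6 imprinted genes, in 2i/LIF (filled circles, n = 3 per state) and FCS/LIF (open squares, n = 2), with the line at the mean. In 2i/LIF, Krt8, Krt18, Krt7, Gata2, H19, Igf2, Peg10 and Sfmbt2 are higher in −N than in −E in every library, while in FCS/LIF the levels in −E and −N lie closer together.

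A second set was lower in −E than in both −N and +E+N. Ldhb, the B subunit of lactate dehydrogenase (ENSMUSG00000030246, chr6:142490249-142507957), had 12.3, 11.4 and 8.25 CPM in −E, against 139.7, 97.0 and 102 in −N and 131, 83.0 and 92.5 with both factors. The difference between −E and −N was -3.41 on the log2 scale (SE 0.21, adjusted p = 1.56e-06), and that of −N from +E+N was 0.15 (adjusted p = 0.693). Smyd1, a methyltransferase of muscle, was at 1.21, 0.671 and 1.30 CPM in −E, 6.14, 8.48 and 13.2 in −N, against 8.50, 7.77 and 12.2 with both factors (log2 fold change -3.12, adjusted p = 8.84e-05). Fabp3, a carrier of fatty acids, had 4.52, 8.15 and 8.86 CPM in −E, 78.8, 60.8 and 69.9 in −N, against 51.5, 37.8 and 50.1 with both factors (log2 fold change -3.28, adjusted p = 2.77e-06), but unlike Ldhb and Smyd1 it was not low in −E−N (82.8, 73.3 and 98.8 CPM).

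Several genes outside the naming rule, picked once their values were known, were also lower in −E than in −N. Pvalb, a calcium-binding protein, had at most 1 count in a −E library, 5.75, 4.46 and 6.53 CPM in −N, against 8.09, 4.95 and 6.17 in +E+N, and no count in −E−N. Epha4, an ephrin receptor, was at 11.9, 8.44 and 5.79 CPM in −E, 48.9, 42.4 and 45.7 in −N, against 52.4, 43.0 and 53.5 with both factors (log2 fold change -2.39, adjusted p = 1.60e-05). Ly6a, a surface protein known as Sca-1, was at 3.74, 3.14 and 3.37 CPM in −E and 12.4, 16.4 and 17.9 in −N, both below its 34.1, 28.1 and 33.2 with both factors (log2 fold change -2.19, adjusted p = 3.56e-06). Nebl, a protein of muscle thin filaments, was nearly absent in −E (0.142, 0.0353 and 0.102 CPM) and at 1.21, 1.78 and 2.06 CPM in −N (log2 fold change -4.11, adjusted p = 3.70e-04). In each of these 4 genes the −E and −N libraries were apart, as in every called gene.

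Of 26 naive pluripotency genes, 3 were called lower in −E and 1 higher (15.4% against 3.94% of all genes, 6 called with the block), with a median of -0.16. Of 11 core factors 1 was called, higher in −E (9.09% of the list, 2 with the block), with a median of 0.10. Tcl1, a coactivator of Akt, was at 29.2, 31.5 and 24.6 CPM in −E and 79.0, 73.2 and 63.4 in −N (log2 fold change -1.34, adjusted p = 0.00112), and its +E+N libraries (85.0, 71.0 and 66.6 CPM) were with −N. Nrp2, a receptor for semaphorins and Vegf, was at 1.53, 1.87 and 2.11 CPM in −E and 11.4, 8.34 and 7.82 in −N (log2 fold change -2.32, adjusted p = 3.42e-04). Jam2, a junctional adhesion molecule, was the third (-1.11, adjusted p = 5.61e-04). The higher members were Prdm14, a factor that represses lineage genes and Fgf signalling (54.4, 55.4 and 47.3 CPM in −E, 34.9, 31.9 and 35.1 in −N, log2 fold change 0.62, under the fold limit without −E or −N replicate 2), and Dppa2, which binds and activates early embryonic promoters (296, 222 and 266 and 115, 143 and 151 CPM, log2 fold change 0.94, adjusted p = 5.89e-04).

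Of a list of 21 pluripotency, epiblast and DNA methylation genes taken from the study's plots of 2i/LIF, 20 could be tested and 0 were called by edgeR (8 had an unadjusted p under 0.05, DESeq2 called 2, and 1 was called with the block). From low to high, the log2 fold changes of those reported were -1.14 for Lef1, -0.72 for Utf1, -0.40 for Dnmt3b, -0.36 for Tfcp2l1, -0.35 for Lin28a, -0.34 for Sox2, -0.20 for Lin28b, -0.20 for Foxd3, -0.12 for Grhl2, -0.12 for Otx2 and -0.10 for Klf4. Above 0 were Tbx3 (0.07), Zfp42 (0.18), Pou5f1 (0.19), Sox3 (0.22), Nanog (0.47), Dnmt3a (0.49), Etv4 (0.54) and Dnmt3l (0.69). Fgf5, a marker of the post-implantation epiblast, had at most 7 counts in a library. Lef1, the Wnt effector with the largest value, was at 2.39, 2.47 and 4.12 CPM in −E and 9.05, 5.40 and 5.38 in −N, both above its 0.944, 0.586 and 0.655 in +E+N (adjusted p between −E and −N = 0.0126). Of 21 formative and primed epiblast genes, only Krt18 and Fzd7 were called, both lower in −E (9.52% against 3.94% of all genes, 5 called with the block).

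Among signalling genes, called members were mostly lower in −E. In the Wnt-Tcf list 6 of 40 were lower and 0 higher (15% of the list against 3.94% of all genes, median -0.20). With the block 11 were called, 10 lower and 1 higher. The highest log2 fold change of a member was 3.13, not called in the main fit. Lgr5, a receptor for R-spondin, had no count in any −E library and 0.923, 0.870 and 0.442 CPM in −N, at least 7.10-fold higher in −N against the floor of 3 counts. Sfrp1, a secreted antagonist of Wnt, was at 12.6, 8.33 and 4.57 CPM in −E, 31.9, 29.0 and 25.4 in −N, against 47.1, 36.0 and 25.2 with both factors (log2 fold change -1.76, adjusted p = 0.00207). Sp8, a zinc finger factor (-1.51), Wls, which carries Wnt proteins to the surface (-1.32), and receptors Fzd2 (-0.87) and Fzd7 (-0.59) were the others. Of these, Sp8, Wls and Fzd2 lie outside the naming rule, and their choice followed their values. The calls of Sfrp1 and Wls were lost without −E replicate 2, that of Fzd2 without −E replicate 2 or −N replicate 1, and that of Fzd7 in 4 of the 6 fits without 1 library, while Lgr5 and Sp8 kept theirs in all 6.

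In the list of Tgf-beta family genes 3 of 35 were lower and 0 higher (8.57% of the list against 3.94% of all genes). With the block 8 were called, 6 lower and 2 higher. Lefty1, a secreted antagonist of Nodal, was at 22.4, 21.5 and 32.3 CPM in −E and 61.6, 84.2 and 60.4 in −N, and at 6.11, 6.45 and 4.31 in +E+N, so its level was lowest with both factors (log2 fold change -1.44, adjusted p = 0.00193). The others were Fstl1, a secreted binder of Bmp proteins (-1.35), and Smad3, a transducer of Activin and Nodal (-1.09). Without 1 library, Lefty1 lost its call in 2 fits (−E or −N replicate 2 left out) and Fstl1 in 5 of 6. In the Fgf-Erk list 2 of 29 were lower and 0 higher, Fgfr2 and Fgfbp1, an extracellular carrier of Fgf proteins (-1.50, lost in 3 of the 6 fits without 1 library). That is 6.9% of the list (6 called with the block, 4 lower and 2 higher). Of 23 LIF-Stat3 pathway genes only Sgk1 was called (4.35%, near the share of all genes; 3 with the block). Among 27 nuclear receptors the 1 called was Pparg, the adipocyte and trophoblast receptor, with no count in −E and 0.958, 0.834 and 0.774 CPM in −N, at least 8.15-fold higher in −N (3.7% of the list, also near that share; 4 called with the block).

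Of 38 glycolysis and pyruvate genes, Ldhb and Hk1 were called, both lower in −E (5.26% against 3.94% of all genes, 6 called with the block, 3 in each direction). Hk1, a hexokinase, was at 79.2, 90.5 and 67.2 CPM in −E and 122, 109 and 126 in −N (log2 fold change -0.59, adjusted p = 0.00269), and its call was lost in 3 of the 6 fits without 1 library. In the edgeR fit 0 members were called among 81 subunits of oxidative phosphorylation (19 with an unadjusted p under 0.05, 1 called by DESeq2, 3 with the block), 13 mitochondrially encoded genes (0, 0 and 0), 78 mitochondrial ribosomal proteins (10, 0 and 0), 27 Atf4 targets (4, 0 and 0), 27 citric acid cycle genes (12, 0 and 0), 30 fatty acid oxidation genes (11, 0 and 1) and 27 cholesterol synthesis genes (2, 0 and 0). Only 8 of 26 steroid and bile acid genes, known targets of Nr5a2 in liver and gonad, could be tested, and 0 were called (3 with an unadjusted p under 0.05, 1 called by DESeq2 and 1 with the block). The same holds for 29 p53 targets (5, 0 and 0) and 19 DNA methylation and Tet genes (7, 1 and 0).

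Lists of germline and other lineage markers held 2 to 4 called members each where they held any. Of 42 germline and meiosis genes 3 were higher in −E, Brdt, Dazl and Smc1b, and 1 lower, Kitl, the ligand of Kit (-1.69), 9.52% of the list against 3.94% of all genes (9 called with the block). Dazl, an RNA-binding protein of germ cells, was at 37.4, 51.6 and 45.9 CPM in −E and 14.6, 19.3 and 21.6 in −N (log2 fold change 1.28, adjusted p = 0.00178). Smc1b, the meiotic cohesin subunit, had a log2 fold change of 1.19. Besides Khdc3, the list of the oocyte subcortical maternal complex had Zbed3 called, lower in −E (-0.80), so that 2 of 9 were called (22.2%, 3 with the block).

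In the primitive endoderm list 3 of 16 were higher in −E and 0 lower (18.8% against 3.94% of all genes, 4 called with the block). Dab2, an endocytic adaptor, was at 4.34, 2.72 and 3.00 CPM in −E and 0.639, 0.544 and 0.553 in −N (log2 fold change 2.53, adjusted p = 0.00276). Sparc, a matrix glycoprotein, was at 216, 199 and 171 and 84.5, 59.4 and 56.3 CPM in the same order (log2 fold change 1.55, adjusted p = 8.55e-05), and Lrp2 had a log2 fold change of 0.72. Sparc kept its call without each library, while Dab2 lost it in 4 of 6 fits (adjusted p up to 0.017, without −N replicate 2) and Lrp2 in 5 (up to 0.0235, without −E replicate 3). The defining factors Gata4 (0.82), Sox17 (-0.02) and Pdgfra (-0.56) were not called, and Gata6, Sox7 and Ttr had at most 62, 13 and 0 counts in a library. Summed over the list, the level was 1032 to 1114 CPM in −E and 986 to 1079.9 in −N, ranges that overlap.

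Of 11 neural markers, Map2 (-1.72) and Ncam1 (-1.61) were lower in −E (18.2% of the list). With the block 3 were called, 2 lower and 1 higher. Map2 lost its call in 5 of the 6 fits without 1 library. Ncam1, an adhesion molecule, was at 4.06, 3.25 and 3.17 CPM in −E, 10.7, 9.03 and 12.4 in −N, against 8.25, 10.4 and 11.1 in +E+N. Of 10 fibroblast markers, Col5a1 was higher (0.78) and Tagln lower (-2.19), 20% of the list (4 called with the block). The call of Col5a1 was lost without −E replicate 3 and that of Tagln in 5 of 6 fits. The summed level of the list was 172 to 208 CPM in −E and 236 to 267 in −N. Its median log2 fold change went the other way, at 0.61. Of 6 members with an unadjusted p under 0.05, 4 were higher in −E and 2 lower. Among 14 mesoderm and primitive streak markers and 21 genes of the 2-cell stage, 0 were called by edgeR (7 and 7 with an unadjusted p under 0.05, 4 and 1 called by DESeq2, 3 and 7 with the block). All 7 of the 2-cell-stage genes with an unadjusted p under 0.05 were lower in −E, and the median of that list was -0.75, with a summed level of 272 to 310.0 CPM in −E and 335 to 395 in −N. The part of other cells in the differences above was not tested.

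**Figure D4:**
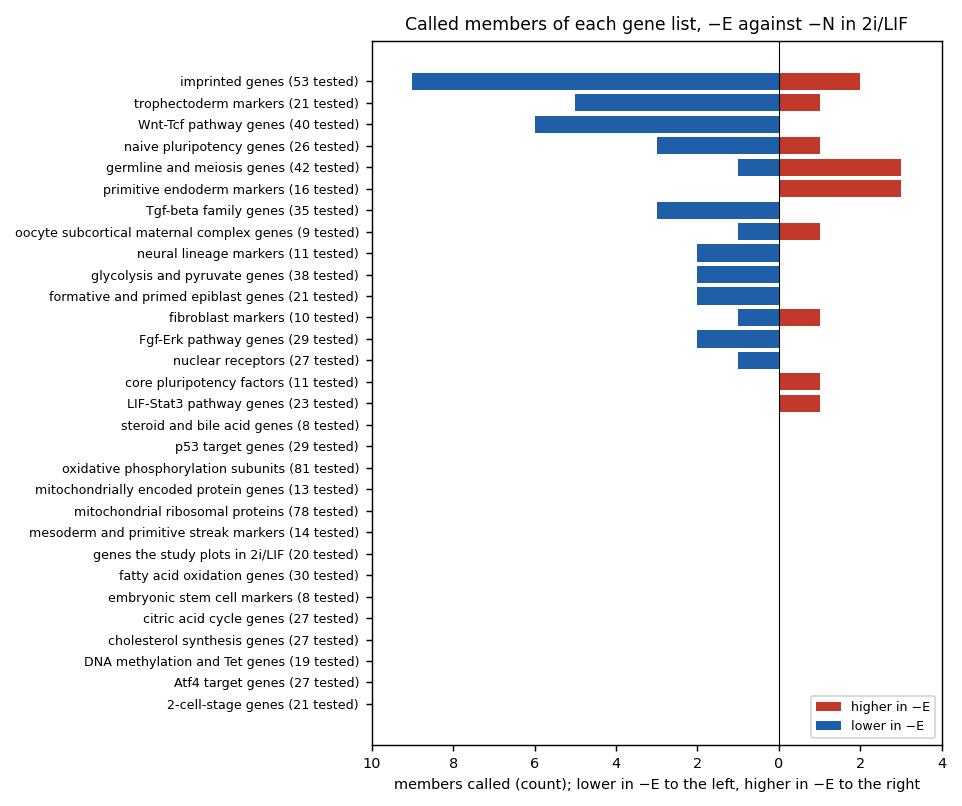
Number of members of each of 30 gene lists called lower (blue, to the left) and higher (red, to the right) in −E than in −N in 2i/LIF, with the number of members tested beside the name. The longest bars are the 9 imprinted genes and 6 Wnt-Tcf pathway genes lower in −E, and 14 lists have no called member.

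Called genes often lay next to each other. Of the 316 genes higher in −E, 56 (17.7%) had an adjacent tested gene called in the same direction, against 3.96% of the other genes tested, and of the 249 lower in −E, 27 (10.8%) had one, against 3.22%. There were 24 and 12 such runs. Some hold genes that overlap on opposite strands and may share reads (Rgs11 with Arhgdig, Igf2 with Igf2os). Others hold neighbours of the same family, such as Krt8 with Krt18 and Rhox6 with Rhox9. The longest, of 4 genes, were the imprinted genes on chromosome 12 above and Ctsf, Actn3, Zdhhc24 and Bbs1 at chr19:4855130-4906628, higher in −E. Calcoco2, Ttll6 and Hoxb13 at chr11:96099326-96197447, and Dpp4, Gca and Kcnh7 at chr2:62330073-63184287, were runs of 3 genes higher in −E. Dpp4, a surface dipeptidase, was at 45.0, 60.1 and 64.9 CPM in −E and 6.96, 11.1 and 20.7 in −N (log2 fold change 2.14, adjusted p = 0.00123). The runs were chosen for their length.

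Of the 249 genes lower in −E, 26 (10.4%) were on the X chromosome, against 8 of the 316 higher in −E (2.53%) and 3.66% of all genes tested. The X-linked homeobox genes Rhox6 and Rhox9 (chrX:37826910-37829857 and chrX:37899097-37901770), abundant in placenta, were among them. Rhox6 was at 2.35, 3.07 and 3.92 CPM in −E and 13.6, 17.4 and 13.4 in −N (log2 fold change -2.24, adjusted p = 3.14e-05), and Rhox9 at 2.49, 3.46 and 3.37 and 12.5, 17.3 and 10.0 CPM (log2 fold change -2.09, adjusted p = 1.27e-04). Amot, a regulator of Hippo signalling (-0.97), and Efnb1, an ephrin (-1.18), were X-linked too, and like Rhox6 were higher in −N than with both factors (log2 fold change 2.98 for Rhox6, 2.04 for Amot and 2.01 for Efnb1). Over all 525 genes tested on the X the median log2 fold change was -0.04, and over the genes of each autosome the medians ran from -0.06 (chromosome 8) to 0.05 (chromosome 11). The choice of these 4 X-linked genes followed their values.

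The same contrast was made in FCS/LIF, in 2 libraries of each state that the comparison above does not use, where 691 of 15636 genes (4.42%) were called. Of the genes higher in −E in 2i/LIF that were tested in both media, 207 of 285 (72.6%) had the same sign in FCS/LIF, and of those lower 163 of 240 (67.9%), against 53.8% of all genes. Their median log2 fold changes in FCS/LIF were 0.23 and -0.19. Selection by the 2i/LIF value favours smaller values in the other medium. Of the 285, 25 were called in FCS/LIF (8.77%), all in the same direction, and of the 240, 51 (21.2%), 40 in the same direction and 11 in the opposite, against 4.10% of all genes tested in both. As a share of the calls in FCS/LIF, the calls in the same direction are 3.62% and 5.79%.

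Ldhb and Calcoco2 kept their direction and their call. In FCS/LIF, Ldhb was at 86.1 and 81.8 CPM in −E and 421 and 398 in −N (log2 fold change -2.29, edgeR adjusted p in the fit of FCS/LIF = 2.47e-07), and the difference of -1.13 between media (adjusted p = 0.0132) missed the limit but passed it with the block (adjusted p = 3.22e-05). Calcoco2 was at 97.5 and 93.1 CPM in −E and 22.5 and 13.3 in −N there, a log2 fold change of 2.42 (adjusted p = 9.15e-04 in the same fit) beside 2.44 in 2i/LIF. Genes picked after their values were seen for a call in both media, with the 2i/LIF value first, were Pvalb (-7.66 and -6.35), Nebl (-4.11 and -3.43), Ntn1 (-2.59 and -2.29), Epha4 (-2.39 and -1.87), Ly6a (-2.19 and -2.90), Slc47a1 (-1.85 and -2.41), St8sia1 (-1.65 and -2.25), Fat2 (2.89 and 3.10), Steap3 (2.24 and 2.44), Prmt8 (2.47 and 2.16) and Dpp4 (2.14 and 1.98). Steap3, a reductase of iron uptake, was at 70.2 and 73.1 CPM in −E and 12.2 and 14.04 in −N in FCS/LIF, after 106, 98.2 and 99.5 and 15.8, 21.4 and 27.0 in 2i/LIF. For these genes, picked for their calls, the states did not overlap in either medium, which is no further support. The fitted values of Pvalb, with at most 1 count in a −E library of 2i/LIF, depend on the prior count, and the call of Fat2 in 2i/LIF was lost in 4 of the 6 fits without 1 library.

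The difference between the media was itself tested in a fit of all 20 libraries, and 428 of 16147 genes (2.65%) were called (1094 with the replicate number as a block). Among the genes called in 2i/LIF and tested in both media, 87 of the 285 higher and 106 of the 240 lower were called. Of all 13844 genes tested in both, 411 were. The 285 and 240 genes were selected by 2i/LIF values that also enter the difference. That selection favours such calls, so these counts are no test of the medium. The 3 largest in favour of 2i/LIF were Rgs11 (4.80, adjusted p = 3.86e-06), Arhgdig (4.31) and Ddr2 (3.38), and Rgs11 was at 2.64 and 2.59 CPM in −E and 1.63 and 1.71 in −N in FCS/LIF. In the other direction were Car4, Igf2os and Acta2, smooth muscle actin, each with at most 2 counts in a −E library of 2i/LIF, and Acta2 stood at 23.7 to 37.2 CPM in the 4 libraries of FCS/LIF. H19 was at 246 and 363 CPM in −E and 833 and 1115 in −N in FCS/LIF, and Igf2 at 332 and 457 and 491 and 707. Both were high in each depletion there, and their log2 fold changes were -1.68 and -0.60, smaller by -4.31 and -5.28 (2i/LIF minus FCS/LIF, adjusted p = 1.31e-05 and 4.96e-07).

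Krt8 was at 258 and 349 CPM in −E and 366 and 521 in −N in FCS/LIF (log2 fold change -0.55, not called), above every library of −E and −N in 2i/LIF. Some pluripotency genes had the larger difference in FCS/LIF. Klf4, a naive factor downstream of LIF, had a log2 fold change of -1.92 in FCS/LIF (15.7 and 13.8 CPM in −E, 58.1 and 53.8 in −N) and -0.10 in 2i/LIF, where its ranges overlapped. Tfcp2l1 (-1.87), Zfp42 (-1.43), Tbx3 (-1.06) and Esrrb itself (-1.78) were likewise lower in −E in FCS/LIF, and the difference between media was called for all 5. It was not called for Pou5f1 (0.12, adjusted p = 0.769), Sox2 (-0.10, adjusted p = 0.829), Foxd3 (-0.09, adjusted p = 0.903) or Tcl1 (0.37, adjusted p = 0.493). Sp8 and Wls changed sign, with 3.18 and 1.39 in FCS/LIF beside -1.51 and -1.32 in 2i/LIF. Medium and culture batch cannot be told apart.

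**Figure D5:**
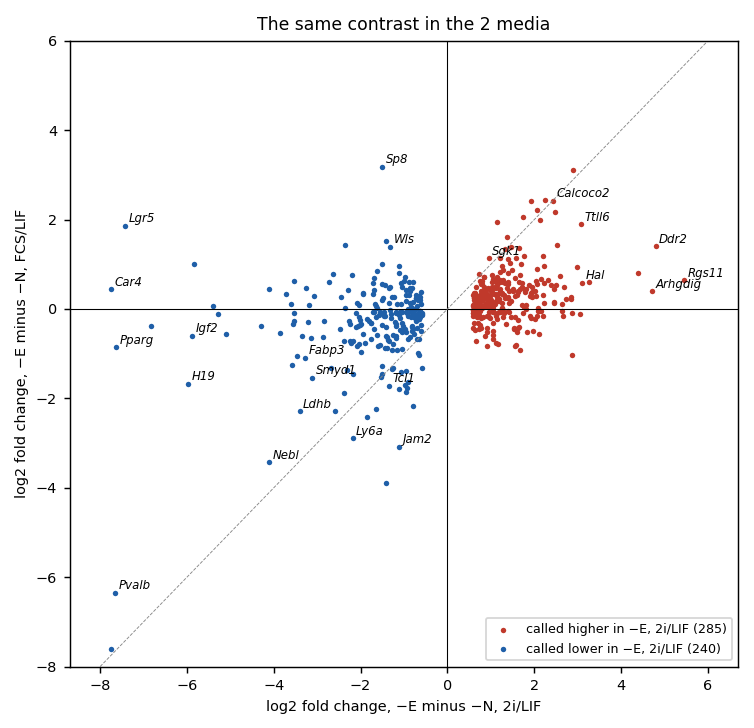
Log2 fold change of −E minus −N in 2i/LIF (x axis) and FCS/LIF (y axis) for the 285 genes called higher (red) and 240 called lower (blue) in −E in 2i/LIF that were tested in both media, with the dashed line at equal values. Calcoco2 lies at the line, Ldhb, H19, Igf2, Rgs11 and Ddr2 lie nearer to 0 in FCS/LIF, and Sp8 and Wls have opposite signs.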

How the data were processed

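RNA-seq of ESCs was used, with the 6 libraries of −E and −N in 2i/LIF compared within all 12 libraries of 2i/LIF. Per the labels and methods, libraries were stranded and read from both ends, and the authors ran STAR against mm10 and then RSEM, which gave the deposited expected counts and TPM values of each gene. Versions and the strand setting are not given in the sources used here. Counts were rounded and fitted as 4 states with edgeR 4.0.16 in R 4.3.3 (TMM, quasi-likelihood test). The 14355 genes kept reached 20 counts in every replicate of some state, and calls needed a Benjamini-Hochberg adjusted p under 0.01 and a fold change over 1.5. FCS/LIF was fitted in the same way, over 15636 genes, and the difference between media over 16147. Genes near 20 counts carry the largest sampling error, and folds against a state without counts are bounds against 3 counts per library, covering counting error only. Of 54238 rows, 54079 matched GENCODE vM21 (mm10), the source of names and coordinates. Row names shared by several IDs (89) were kept apart by ID.

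Replicate numbers were checked by the correlation of deviations from the state means between −E and −N libraries, which was 0.417, 0.163 and 0.384 for equal numbers and between -0.368 and 0.0649 for unequal ones, so the number was taken to pair libraries, and counts from a blocked fit stand beside the main ones. No 2 replicates agreed within sampling noise (chi-square per degree of freedom 6.71 to 26.8). Named were the targeted genes, the 12 largest called differences each way (mean of at least 100 counts, ranges not overlapping), 2 called members per list and direction, a list of 21 genes from the study's plots of 2i/LIF, and the 3 largest media differences each way; predicted genes were counted but not named. Of 14355 genes, 4435 (30.9%) had ranges of −E and −N that did not overlap. Members and lists were chosen with earlier results of these data known. Alternatives were DESeq2 1.42.0, limma 3.58.1 on the authors' TPM (log2 after adding 1 or 0.1), DESeq2 size factors, other filters and limits, the compared libraries alone, all 20 libraries, the block and leaving out each library. The steps were tested on simulated data. ChIP-seq was not analysed here. The value of 1 gene of that list is not reported here.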

Additional observations from a re-analysis of the deposited data

Results flagged for a closer look

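The contrast of −E and −N differed between 2i/LIF and FCS/LIF for 428 genes, by edgeR's quasi-likelihood test of the difference itself in 1 fit of all 20 libraries. The values below are that difference (log2 fold change in 2i/LIF minus that in FCS/LIF) for the named genes past the limits, each with an adjusted p under 0.01, and none was weighed further.

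Among genes higher in −E in 2i/LIF it was 4.80 for Rgs11, 4.31 for Arhgdig, 3.38 for Ddr2, 2.89 for Eif4e1b, 2.80 for Scn2b, 2.52 for Hal, 2.24 for Khdc3 and 1.10 for Prdm14. Positive differences, with −E minus −N lower in FCS/LIF than in 2i/LIF, were also 1.96 for Jam2, 1.81 for Klf4, 1.61 for Zfp42, 1.55 for Esrrb, 1.50 for Tfcp2l1, 1.12 for Tbx3, 0.81 for Nanog, 0.74 for Dnmt3a and 0.73 for Hk1, of which Zfp42, Tbx3, Nanog and Dnmt3a were above 0 in 2i/LIF and below 0 in FCS/LIF.

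For trophectoderm markers it was -3.32 for Krt8, -2.24 for Krt18, -2.93 for Gata2 and -3.27 for Fgfr2. For imprinted genes it was -4.31 for H19, -5.28 for Igf2, -1.71 for Rtl1, -1.51 for Peg3, -1.39 for Meg3, -1.29 for Rian and -1.28 for Mirg. X-linked genes gave -3.24 for Arhgef6, -1.70 for Amot and -1.53 for Rhox6. Other genes gave -5.19 for Gjb2, -4.58 for Slc13a4, -2.19 for Fabp3, -4.69 for Sp8, -2.72 for Wls, -1.35 for Fzd2, -1.86 for Lef1, -2.52 for Fgfbp1, -1.62 for Kitl, -2.97 for Tagln and -0.76 for Dnmt3b.

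For genes with 0 to 3 counts in every −E library of 2i/LIF the fitted value depends on the prior count and is no bound. These values were -9.53 for Lgr5, -8.44 for Car4, -7.02 for Pparg, -6.86 for Slc22a3 and -6.48 for Igf2os.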

How the results depend on the processing

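The 565 genes called between −E and −N in 2i/LIF became 931 with DESeq2 (564 of the 565 included), 888 with no filter, 876 with all 20 libraries in the fit, 1082 at an adjusted p under 0.05, 374 with limma on log2(TPM + 1) and 1241 with the replicate block. Leaving out single libraries gave 336 (without −E replicate 2, and also without −N replicate 2) to 622 genes, with 355 without −N replicate 1 and 373 without −E replicate 3. The 223 genes of −E against +E+N became 447 with DESeq2, 596 with the block and 87 (without −E replicate 3) to 251 without single libraries, with 95 to 127 without −E replicate 2 or any 1 of the +E+N libraries, and the 524 of −N against +E+N became 860, 1115 and 243 (without −N replicate 2) to 569, with 264 to 307 without +E+N replicate 2 or 3 or −N replicate 1. The 691 genes in FCS/LIF became 1049 with the block and 175 (without −E replicate 2) to 757 without single libraries, with 291 without −E replicate 1 and 408 to 435 without a −N library. The 428 genes that differed between media became 765 with DESeq2, 1205 with no filter, 1094 with the block and 117 (without −E replicate 2 of FCS/LIF) to 431 without single libraries, with 162 to 192 without another −E or −N library of FCS/LIF and 282 without −N replicate 2 of 2i/LIF. List members called rose from 48 to 75 with DESeq2 and 105 with the block, imprinted genes from 11 to 18 and trophectoderm markers from 6 to 10 with the block. The median of chromosome 19 moved from 0.0269 to 0.0236 with DESeq2 size factors. No value changed direction past the limits. The share of calls higher in −E was 55.9%, 55.3% with DESeq2, 50.8% with limma on log2(TPM + 1) and 47.8% on log2(TPM + 0.1).

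Of 84 named genes called, 58 kept the call without each of the 6 libraries and 26 lost it without at least 1, of the 24 largest only Brdt and Ocln. These fits without a library had no replicate block. With limma on log2(TPM + 1), 19 lost the call. In 2i/LIF the block changed no named call other than those of Eomes, Mest, Peg3, Lef1 and Sgce, which became called, and DESeq2 also called Dnmt3l. The causes of these moves were not tested. Defb42 and Fat2 had at most 27 and 38 counts in any library of −E or −N, and counting error weighs most at such counts.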
